A study of Arabidopsis thaliana with 28 samples.

Results

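The late response of the root elongation zone to hydrogen peroxide (H2O2) was read from 8 of the 28 arrays of the series. The 8 arrays were chosen by their labels: 4 arrays of elongation zones taken after 3 and 6 h on 1 mM H2O2 and 4 taken after 3 and 6 h on control medium, 2 biological replicates in each of the 4 groups. All plants were Arabidopsis thaliana of the Columbia-0 accession, grown on MS medium (a mineral salt medium) and aged 5 days at the transfer. The series asked which genes of the root tip respond to H2O2 in its meristematic and elongation zones, and also holds elongation zones on control medium at 0 and 1 h and on H2O2 at 1 h, and meristematic zones in the same 7 conditions. Control roots stayed on MS medium without H2O2. Each replicate pooled 30 roots cut by hand under a microscope, and the RNA went through 2 cycles of amplification before hybridisation to ATH1 arrays, so each value is a mean over all cell types of the cut piece. In such bulk samples fewer cells of a type and less RNA per cell cannot be told apart.

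Cells that leave the root meristem stop dividing and lengthen by loosening their walls, and reactive oxygen species take part in this transition: superoxide is known to prevail among the dividing cells and H2O2 among the elongating ones. H2O2 applied from outside acts as a signal and as an oxidant. Plant cells answer oxidants and foreign chemicals with a set of detoxifying enzymes: reductases act on reactive groups, glutathione transferases and glucosyltransferases conjugate the products, and transporters move the conjugates out of the cytosol. Peroxidases, thioredoxins, glutaredoxins and methionine sulfoxide reductases remove oxidants or repair oxidised proteins.

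Replicates of the 4 groups had a Pearson r across probe sets of 0.979 to 0.985. Array medians lay between 49.3 and 55.6 signal units, and between 27.2% and 31.1% of the probe sets had a signal under 16. The tissue label held against its markers: over the 8 arrays XTH21, a xyloglucan endotransglucosylase of elongating cells, lay between 423 and 743, and in the meristematic arrays at the same times between 0.513 and 3.46. BBM, a transcription factor of the stem cell region, lay between 1.96 and 3.41 in the elongation zone and between 120 and 170 in the meristematic zone. Levels are linear signals as deposited. Differences are log2 fold changes, H2O2 over control medium, of the signal plus 16, with their standard error (SE), averaged over the 3 h and the 6 h difference so that time is a stratum.

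At 3 and 6 h on H2O2 the elongation zone held more transcript of the beta-glucosidase BGLU28, the chitinase family gene AT2G43590, the glutathione transferase GSTU25 and the glucosyltransferase GT72B1, among others, and less of AT2G41810, a gene for a secreted wall protein. A probe set was called at a Benjamini-Hochberg adjusted p under 0.05 in limma's moderated test over the 22746 probe sets. The late contrast called 102 of them, 0.448%, of which 84 were higher on H2O2 (0.369%) and 18 lower (0.0791%). An unadjusted p under 0.05 was reached by 2234. Over all probe sets the median log2 fold change was -0.03, that of the probe sets called higher 1.13 and that of those called lower -0.79. A change of at least 1 on the log2 scale was found in 51 of those called higher and in 4 of those called lower.

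In every one of the 84 probe sets called higher both H2O2 arrays lay above both control arrays at 3 h and again at 6 h. Over all probe sets 4.58% met that condition. Of the 18 called lower, 17 lay below both control arrays at both times, which 5.55% of all probe sets did. The split was read from the arrays that gave the late values, so it describes the calls and is no separate support. A single named gene was available for 47 of the 102, 37 higher and 10 lower. The other 55 were counted but not named. They ranged from 0.50 to 2.44 where called higher (47 probe sets) and from -2.30 to -0.49 where called lower (8 probe sets).

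With 2 arrays per group the count depended on single arrays. It was 38 without the 3 h control array numbered 1, 41 without the 6 h control array numbered 1, 41 without the 3 h H2O2 array numbered 1 and 44 without the 6 h H2O2 array numbered 2. Of the 47 named genes, 12 kept their call when each of the 8 arrays was left out in turn: BGLU28, AT2G41380, AT2G43590, GSTU25, GT72B1, AT4G01870, IAGLU, AT5G53320, AT4G37290, AT3G44190, AT4G35200 and AT2G41810. Only 5 of the 47 kept it in every alternative that tested them: BGLU28, GSTU25, GT72B1, AT4G01870 and AT2G41810. Over the alternatives the highest adjusted p was 0.0611 for AT2G43590, 0.0726 for IAGLU and 0.0612 for AT3G44190. The sign of none of the 102 turned in any of the 19 alternatives computed. Where the media were split at 3 h and at 6 h, leaving out an array or changing the pseudocount could not turn it. Alternatives that changed only the spread estimate or the probe sets tested left the fold change as it was. They could not turn the sign either, so the kept signs are no separate support.

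The called genes are described by their roles, which were assigned to them after the calls. GSTU25 (AT1G17180) encodes a tau class glutathione transferase, an enzyme that couples glutathione to electrophilic compounds. Its signal was 1393 and 2270 on control medium at 3 h and 5517 and 6045 on H2O2. At 6 h it was 1027 and 1960 on control medium and 4296 and 5311 on H2O2. The lowest H2O2 array stood well above the highest control array at both times. GSTU25 rose by 1.71 ± 0.23 (SE, 4 arrays per medium, limma adjusted p = 0.0006), which is 3.28-fold.

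GT72B1 (AT4G01070) encodes a glucosyltransferase known for conjugating chlorinated phenols and anilines and monolignols. It measured 99.4 and 109 on control medium and 425 and 392 on H2O2 at 3 h. At 6 h its signals were 95 and 146 against 333 and 446. All 4 H2O2 arrays stood far above the control arrays of their time. The rise was 1.70 ± 0.22 (adjusted p = 0.000405, 3.25-fold).

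IAGLU (AT4G15550), a glucosyltransferase that esterifies the auxin indole-3-acetic acid, measured 127 and 216 on control medium and 525 and 549 on H2O2 at 3 h. At 6 h it gave 110 and 197 against 312 and 540. The H2O2 arrays of 6 h were spread more widely than those of 3 h but still stood clear of the controls. IAGLU rose by 1.49 ± 0.19 (adjusted p = 0.000405).

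UGT73B4 and UGT73B5, adjacent genes for closely related glucosyltransferases, both rose. UGT73B4 went from 444 and 704 to 1092 and 1353 at 3 h and from 426 and 824 to 897 and 1269 at 6 h. UGT73B5 went from 215 and 306 to 515 and 720 at 3 h and from 240 and 399 to 446 and 785 at 6 h. In both genes the lower H2O2 array of 6 h came close to the higher control array. The rises were 0.96 ± 0.20 (adjusted p = 0.0281) and 1.05 ± 0.22 (adjusted p = 0.0381). The call of UGT73B4 was lost without any of 5 of the 8 arrays and that of UGT73B5 without any of 6. For both genes these included control and H2O2 arrays of both times.

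Most named members of both families did not pass the test. Members among the 55 called probe sets without a name would be missed here. Of 14 glutathione transferases with a measured gene, GSTU25 alone was called, where 0.369% of all probe sets were called higher, and the median of the 14 was 0.06. GSTU26, the neighbour of GSTU25, had a log2 fold change of 0.03 ± 0.17 at a mean signal of 1747. GSTU22 gave the next highest value of the family, 0.72 ± 0.26 (adjusted p = 0.338). Of 51 glucosyltransferases 3 were called, GT72B1, UGT73B5 and UGT73B4, all higher (0.369% of all probe sets), and the median of the 51 was 0.11. Both shares lie above that background, that of the glutathione transferases through GSTU25 alone. The lists were written with earlier results of these data known, and no test of them was made. UGT84A1 and UGT73B1 had values as large as those of the UGT73B pair but more spread, 1.19 ± 0.29 (adjusted p = 0.0907) and 1.16 ± 0.35 (adjusted p = 0.217). IAGLU was not in that list, which was matched by symbol. Transcripts of close relatives can bind to the same probes, so the split between members of these families is uncertain.

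**Figure D1:**
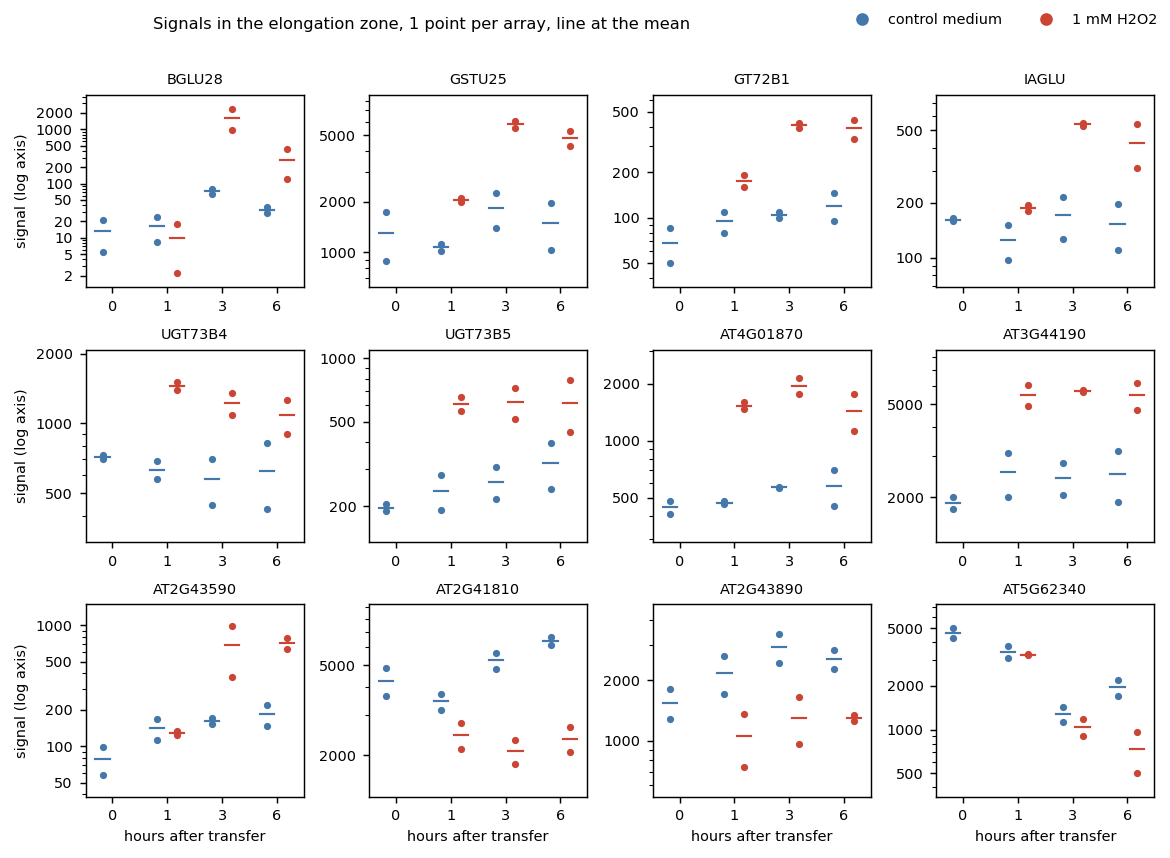
Signals of 12 genes in the elongation zone by array (vertical log axis, signal units; horizontal axis, hours after transfer), blue for control medium and red for 1 mM H2O2, with a line at the mean of the 2 arrays. BGLU28 and AT2G43590 on H2O2 lie within or near the control range at 1 h and above it at 3 and 6 h, whereas AT4G01870, UGT73B4 and AT3G44190 already stand apart at 1 h.

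Several reductase genes were also called. AT3G44190 belongs to the FAD/NAD(P)-binding oxidoreductases and was, beside GSTU25, among the brightest genes that rose. It measured 2045 and 2802 on control medium and 5771 and 5636 on H2O2 at 3 h, and 1903 and 3141 against 4732 and 6183 at 6 h. The lowest H2O2 array, 4732, stood above the highest control array, 3141. It rose by 1.19 ± 0.16 (adjusted p = 0.000608).

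AT1G60730 and AT1G60750, members of the aldo/keto reductase family that lie 2 genes apart, were both called. AT1G60750 measured 34 and 44.3 against 133 and 167 at 3 h, and 17.2 and 58.3 against 93.8 and 196 at 6 h. AT1G60730 measured 73.3 and 93.7 against 187 and 195 at 3 h, and 59.1 and 97.9 against 187 and 404 at 6 h. Neither gene overlapped between the media at either time. They rose by 1.61 ± 0.28 (adjusted p = 0.00766) and 1.36 ± 0.25 (adjusted p = 0.0146). The AT1G60720 gene beside AT1G60730 had a value of -0.10 and ATB2, 2 genes away from it, one of 0.26, and neither was called. The calls of AT1G60750 and AT1G60730 were lost without 3 and 4 of the 8 arrays left out in turn.

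AT4G01870, a gene of the tolB-related family that is a common marker of chemical and oxidative stress, measured 560 and 571 on control medium and 1761 and 2151 on H2O2 at 3 h. At 6 h it gave 452 and 699 against 1130 and 1762. It rose by 1.53 ± 0.18 (adjusted p = 0.000219). AT5G61820 measured 550 and 1180 against 2420 and 2241 at 3 h, and 582 and 945 against 1683 and 2718 at 6 h. Its control arrays of a time were spread widely but did not overlap with the H2O2 arrays. AT5G61820 rose by 1.51 ± 0.27 (adjusted p = 0.0113), a call lost without any of 4 of the 8 arrays.

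AT5G64250 measured 269 and 389 against 929 and 1172 at 3 h, and 247 and 435 against 527 and 1022 at 6 h, a rise of 1.38 ± 0.23 (adjusted p = 0.00499). AT5G07870, of the transferase family that acylates small molecules, and AT5G10830, of the methyltransferases, rose by 1.05 ± 0.23 (adjusted p = 0.0438) and 0.61 ± 0.13 (adjusted p = 0.0352), calls lost without 7 and 6 of the 8 arrays left out in turn. AT5G07860 next to AT5G07870 had a larger value with more spread, 1.29 at an adjusted p of 0.0841, and was not called. AT3G21690, of the MATE family of efflux carriers, measured 169 and 172 against 375 and 265 at 3 h, and 248 and 234 against 440 and 430 at 6 h. It rose by 0.82 ± 0.17 (adjusted p = 0.0358), a call lost without any of 7 of the 8 arrays.

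BGLU28 (AT2G44460) had the largest rise of the named genes. It encodes a beta-glucosidase that is known to break down glucosinolates, the sulfur-rich defence compounds of the cabbage family, and that is a marker of sulfur starvation. Its signal was 79.4 and 64.5 on control medium at 3 h and 963 and 2318 on H2O2. At 6 h it was 36.2 and 28.8 on control medium and 119 and 425 on H2O2. The H2O2 arrays of a time differed from each other by more than 2-fold, and the lower of them still exceeded the controls more than 3-fold. BGLU28 rose by 3.22 ± 0.39 (adjusted p = 0.000225), which is 9.33-fold.

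Its neighbours moved less: BGLU15 had a value of 0.50 ± 0.11 (adjusted p = 0.0524) and BGLU29 one of 0.01 ± 0.27 at a mean signal of 23.1. Only 2 genes of the sulfur starvation list were measured, and the other, the ATP sulfurylase APS3, had a value of 0.28 ± 0.14 (adjusted p = 0.518). HL, a HAL2-like nucleotidase whose family clears a byproduct of sulfate use, measured 262 and 260 against 440 and 516 at 3 h, and 250 and 226 against 362 and 334 at 6 h. It rose by 0.68 ± 0.14 (adjusted p = 0.0269), a call lost when any of the 8 arrays was left out.

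The listed genes of antioxidant enzymes and of redox repair gave no call. None of 4 antioxidant enzymes with a measured gene passed: the glutathione reductase GR1 had a value of 0.25 ± 0.13, the stromal ascorbate peroxidase SAPX 0.05 ± 0.21, and the monodehydroascorbate reductase ATMDAR2 -0.04 ± 0.11. ATMDAR2 measured between 2894 and 3910 on control medium and between 3105 and 3531 on H2O2, ranges that overlap. None of 12 thioredoxin, glutaredoxin and methionine sulfoxide reductase genes was called, and their median was 0.12. The methionine sulfoxide reductase MSRB5, which repairs oxidised methionine, had the highest value of these, 0.78 ± 0.22 (adjusted p = 0.176). Its signal was 1753 and 1797 against 4486 and 3662 at 3 h and 2005 and 2082 against 2844 and 2453 at 6 h, without overlap. MSRB9, the brightest gene of the list, had a value of 0.10 ± 0.13, with a 95% interval from -0.18 to 0.38.

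Called genes with a role in the wall or at the cell surface lay on both sides. AT2G41810, a member of a small family of DUF642 proteins, which are secreted into the wall, fell most among the named genes. It measured 5666 and 4829 on control medium and 1821 and 2333 on H2O2 at 3 h. At 6 h it gave 6144 and 6697 against 2653 and 2056. The lowest control array, 4829, stood above the highest H2O2 array, 2653. AT2G41810 fell by 1.39 on the log2 scale (SE 0.13, adjusted p = 1.63e-05), and the call was kept in each alternative that tested it, with a highest adjusted p of 0.0127. AT2G41800, the related gene beside it, had a value of -0.59 (adjusted p = 0.35).

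AT2G43890, of the pectin lyase-like family that includes polygalacturonases, measured 2451 and 3411 against 958 and 1650 at 3 h, and 2267 and 2838 against 1350 and 1260 at 6 h. It fell by 1.07 (SE 0.23, adjusted p = 0.0425), a call lost without any of 7 of the 8 arrays. AT5G62340, of the family of invertase and pectin methylesterase inhibitors, overlapped at 3 h, with 1426 and 1128 on control medium and 898 and 1182 on H2O2. At 6 h it was clearly split, with 1718 and 2210 against 505 and 957. Its late value was -0.88 ± 0.15 (adjusted p = 0.00803), made of -0.30 at 3 h and -1.46 at 6 h, and the call was lost without any of 3 of the 8 arrays.

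AT2G43590, a chitinase family gene, was among the genes that rose most. It measured 172 and 152 against 996 and 376 at 3 h, and 218 and 148 against 783 and 637 at 6 h. Its rise was 1.85 ± 0.23 (adjusted p = 0.000279). The related genes beside it did not share this: CHI had a value of 0.19, AT2G43600 of -0.33 and AT2G43610, far brighter at a mean signal of 3561, of -0.06, and none was called. AT3G55430, of the glucanase family that acts on beta-1,3-glucans, rose by 0.56 ± 0.11 (adjusted p = 0.0242). AT2G44300, of the lipid transfer protein type, measured 58.6 and 49.2 against 103 and 142 at 3 h, and 41.3 and 51.8 against 146 and 168 at 6 h. It rose by 1.22 ± 0.24 (adjusted p = 0.0237), a call lost when any of the 8 arrays was left out.

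In the large families of wall-loosening and wall-building enzymes no named member was called. Of 29 expansins and xyloglucan endotransglucosylases none passed and the median was -0.02, with values from -0.62 to 0.65. The brightest 2 were XTH19 at 0.25 ± 0.27 and EXPB1 at 0.04 ± 0.16. Of 51 genes of cellulose and wall polysaccharide synthesis none passed, and the highest value was that of TBL32, a gene of the family that acetylates wall polysaccharides, at 0.82 ± 0.19 (adjusted p = 0.0605). The brightest 2 of these were COB at -0.01 ± 0.10 and TBL39 at 0.04 ± 0.14. Of 55 class III peroxidases, the secreted enzymes that use H2O2 to cross-link or loosen walls, none passed and the median was -0.02. The brightest, AT4G30170, measured between 11552 and 13854 on control medium and between 10935 and 12996 on H2O2, a value of -0.03 ± 0.22. For AT3G01190, the next brightest, the value was 0.20 ± 0.46.

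Regulators appeared among the genes with small changes. HYH, the bZIP homolog of the light-response factor HY5, measured 92 and 105 against 195 and 165 at 3 h, and 131 and 127 against 222 and 220 at 6 h. It rose by 0.74 ± 0.15 (adjusted p = 0.0276). PRN, a pirin that interacts with the G protein alpha subunit, rose by 0.76 ± 0.16 (adjusted p = 0.0358). SHI, a zinc finger factor that affects auxin synthesis and gibberellin responses, was dim, with 30.9 and 25.6 against 11.5 and 16.1 at 3 h and 28.5 and 26.3 against 13.3 and 10.8 at 6 h. It fell by 0.60 (SE 0.12, adjusted p = 0.0237). All 3 calls were lost in at least 5 of the 8 runs that left out an array. UPB1, the bHLH factor known to control peroxidases and the balance of superoxide and H2O2 at this transition, was not called, with 0.25 ± 0.32 and overlapping arrays.

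AT5G53320 and AT4G37290 were dim genes that kept their call with each of the 8 arrays left out, but not in every alternative, where the adjusted p reached 0.0727 and 0.108. AT5G53320 measured 16.4 and 13.8 against 51.4 and 29.6 at 3 h, and 3.39 and 1.38 against 44.6 and 54.5 at 6 h, and rose by 1.33 ± 0.13 (adjusted p = 1.63e-05). AT4G37290 measured 16.6 and 9.37 against 28.4 and 40.9 at 3 h, and 3.65 and 1.5 against 40.4 and 50.4 at 6 h, and rose by 1.26 ± 0.20 (adjusted p = 0.00405). Both genes had lower control signals at 6 h than at 3 h, and H2O2 arrays of like height at both times. AT2G41380 measured 1.07 and 15.4 against 118 and 53.2 at 3 h, and 10.8 and 11.5 against 118 and 71.9 at 6 h, and rose by 2.03 ± 0.29 (adjusted p = 0.00102). Signals of this size lie near the 16 units added before the logarithm, so their folds depend on that choice: the value of AT5G53320 was between 0.58 and 2.64 over the alternatives.

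Other named genes that rose included AT3G26470 at 1.63 ± 0.33 (adjusted p = 0.0276), AT1G72490 at 1.13 ± 0.20, AT3G19320 at 1.09 ± 0.23 and AT3G25790 at 0.86 ± 0.15. In that order, their calls were lost without 6, 4, 6 and 2 of the 8 arrays left out in turn. AT3G26470 measured 27.8 and 53.8 against 124 and 193 at 3 h and 26.1 and 27.1 against 84.1 and 159 at 6 h. The remaining ones had smaller values, from 0.79 for AT4G02940 and AT4G24160 to 0.49 for AT4G22530. Among those that fell, AT2G16660 measured 867 and 785 against 387 and 284 at 3 h and 984 and 736 against 602 and 415 at 6 h, a value of -1.01 ± 0.22 (adjusted p = 0.0489), and the call was lost when any of the 8 arrays was left out. AT4G35200 measured 179 and 203 against 76.1 and 121 at 3 h and 224 and 216 against 105 and 130 at 6 h, a value of -0.85 ± 0.13 (adjusted p = 0.00242). AT4G30680, AT5G23680, AT5G06190 and AT2G29210 lay between -0.87 and -0.47, and the call of each was lost without 4 to 7 of the 8 arrays.

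**Figure D2:**
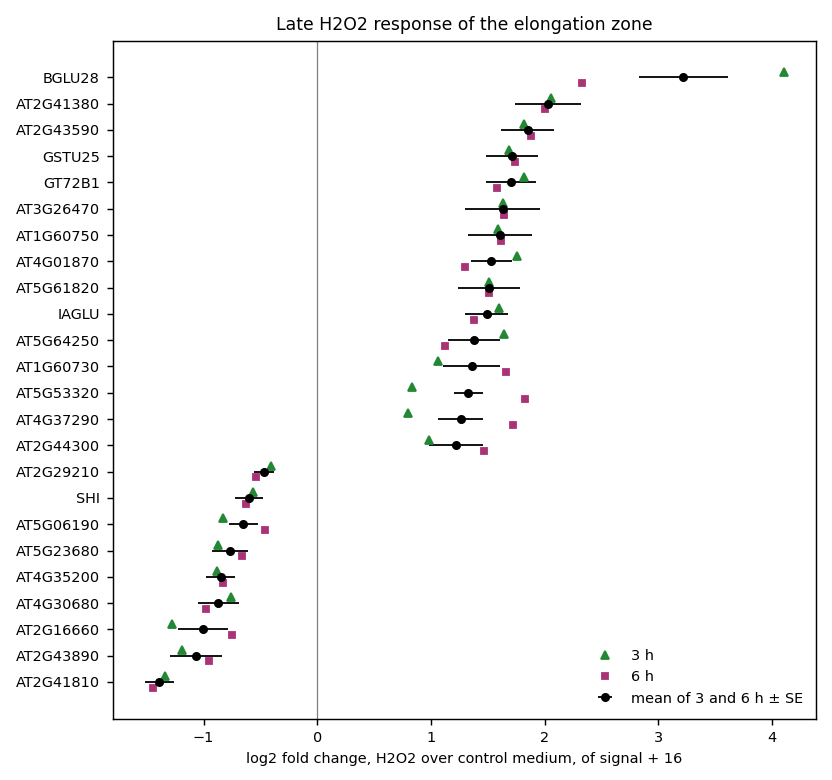
Log2 fold change of signal plus 16, H2O2 over control medium, for the 24 genes named by rule: black dots with bars are the mean of 3 and 6 h ± SE, green triangles the 3 h value and purple squares the 6 h value. All 3 h and 6 h values lie on the same side of 0 as their mean, and BGLU28 has the widest gap between the times, 4.11 at 3 h and 2.33 at 6 h.

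The comparison of 3 h with 6 h asked whether the response kept its size within the late window. Taken alone, 3 h gave 31 calls (0.136%), 27 higher (0.119%) and 4 lower (0.0176%). At 6 h there were 13 (0.0572%), 11 higher (0.0484%) and 2 lower (0.00879%). Both counts were 0 when only the elongation zone arrays, or only the arrays compared, entered the fit. The change of the H2O2 effect from 3 h to 6 h was called for 0 probe sets in limma, with 874 at an unadjusted p under 0.05 and a smallest adjusted p of 0.645. The interval of the change was wide for most genes: for BGLU28 the change was -1.77 with a 95% interval from -3.39 to -0.16, for GSTU25 0.05 from -0.91 to 1.01, and for AT5G62340 -1.17 from -1.81 to -0.53. AT2G43590 and AT2G41810 were the genes that the naming rule gave at both times. At 3 h AT3G03670 and AT3G63360, both under 30 signal units in all arrays, were also called lower, and at 6 h AT4G20930 and AT5G61710 were called higher. AT5G61710 measured 0.883 and 0.938 on control medium and 10.3 and 12 on H2O2 at 6 h, all under 16.

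The arrays of 1 h gave no part of the late fold changes, though they entered the spread estimate behind the calls. They show which of these genes had moved before. They gave 7 calls of their own (0.0308%). Of the 84 probe sets called higher late, 67 had a positive H2O2 effect at 1 h, where 46.1% of all probe sets did, and 4 were called higher (0.0264% of all) and 1 lower (0.0044%). Their median at 1 h was 0.46. The named ones called higher at 1 h were AT4G01870 at 1.68 (adjusted p = 0.0183), AT5G07870 at 1.99 (adjusted p = 0.0332) and AT5G10830 at 1.09 (adjusted p = 0.0343). AT4G01870 already lay between 1470 and 1601 on H2O2 at 1 h, with control arrays between 460 and 477.

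BGLU28 differed in its 1 h value. It lay between 2.26 and 17.9 on H2O2 and between 8.44 and 24.7 on control medium at 1 h, overlapping ranges with a log2 fold change of -0.34. AT2G43590 likewise lay between 123 and 134 on H2O2 and between 113 and 168 on control medium. The late effect minus the 1 h effect was 3.56 for BGLU28 (95% interval 2.17 to 4.96, adjusted p = 0.109) and 1.94 for AT2G43590 (1.11 to 2.78, adjusted p = 0.169), neither past the threshold. Among the genes called lower late, AT2G43890 had the same value at 1 h, -1.07 (adjusted p = 0.427). Of the 18 probe sets called lower late, 10 were negative at 1 h and 44.4% positive, against 46.1% positive of all probe sets. Their median at 1 h was -0.06 and none was called.

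The difference between the late and the 1 h effect was called for 2 probe sets (0.00879%), AT5G53320 and a probe set without a name. AT5G53320 lay between 22.9 and 30.6 on control medium and between 0.782 and 2.18 on H2O2 at 1 h, the reverse of its late order. Its 0 h arrays gave 0.8 and 3.44. The effect was -1.29 at 1 h (adjusted p = 0.0137), and the late effect exceeded it by 2.62 ± 0.22 (adjusted p = 3.79e-06). This count rested on single arrays of 1 h: it was 78 without the control array numbered 2 and 5 without the control array numbered 1.

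The meristematic zone of roots treated alike was read on separate arrays and gave 70 late calls (0.308%). Of the 84 probe sets called higher in the elongation zone, 80 had a positive value there, where 49.3% of all probe sets did, and 33 were called higher (0.273% of all). Their median was 0.67 against 1.13 in the elongation zone. Of the 18 called lower, 13 were negative in the meristematic zone and 1, AT2G41810, was called (0.0352% of all were called lower). The calls chose the elongation zone value for its size. The smaller median in arrays that entered only the spread estimate describes these arrays and is no test of a difference.

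Gene by gene the zones ran from like to unlike values. AT4G01870 had 1.53 in the elongation and 1.65 in the meristematic zone, a difference of -0.12 with a 95% interval from -0.65 to 0.41. AT3G44190 had 1.19 and 1.72, and AT3G26470 1.63 and 2.11. AT2G43590 had 1.85 against 0.08, a difference of 1.77 (interval 1.09 to 2.46, adjusted p = 0.213), and GT72B1 had 1.70 against 0.06, a difference of 1.64 (0.99 to 2.30, adjusted p = 0.231). In the meristematic zone AT2G43590 did not exceed 8.2 signal units and GT72B1 did not exceed 22.2 on either medium at 3 and 6 h.

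GSTU25 had 1.71 against 0.60, a difference of 1.12 (0.44 to 1.80, adjusted p = 0.939), with meristematic control arrays between 2867 and 3518 and thus above the elongation zone controls. AT2G41810 fell in both zones, to between 262 and 529 on H2O2 from between 1949 and 2598 in the meristematic zone, a value of -2.53 (adjusted p = 4.99e-10) against -1.39. The difference, 1.13 with an interval from 0.75 to 1.51, had an adjusted p of 0.0533. The test of the difference between zones called 1 probe set (0.0044%), AT5G53320, at 1.32 ± 0.18 (adjusted p = 0.00935), whose signal in the meristematic zone did not exceed 2.49 at 3 and 6 h. None of the other genes listed here was shown to respond differently in the 2 zones.

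**Figure D3:**
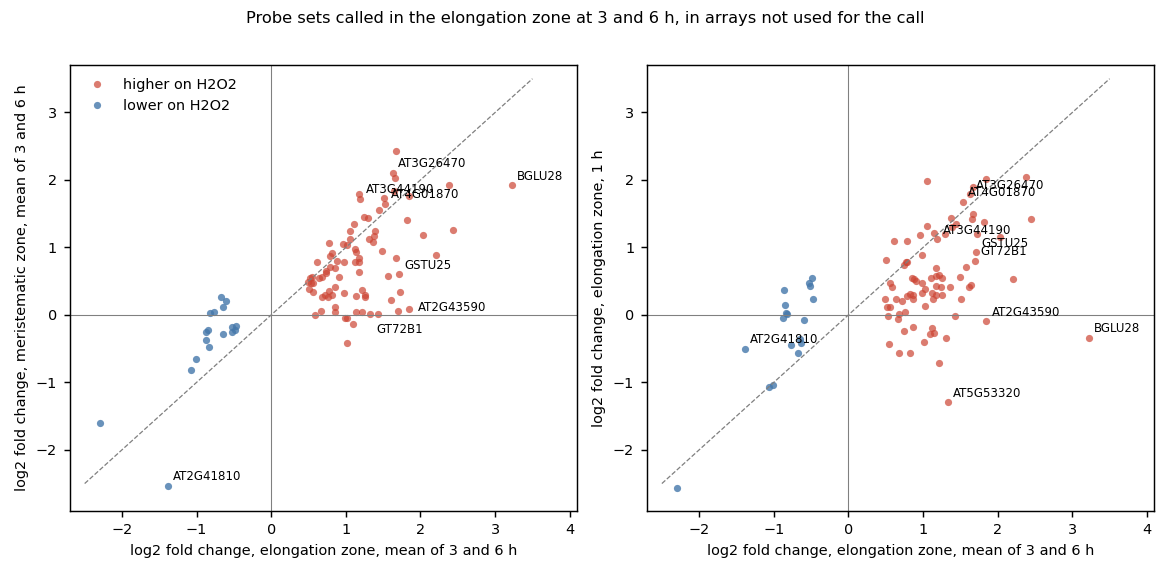
The 102 called probe sets with their late elongation zone effect (horizontal axis, log2 fold change) against the late effect in the meristematic zone (left) and the 1 h effect in the elongation zone (right), neither of which shares arrays with the horizontal axis; red probe sets were called higher and blue ones lower, and the dashed line marks equal values. In the left panel 80 of 84 red points lie above 0, in the right panel 67 of 84.

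The probe sets that rose were often brighter in the elongation zone to begin with. In control roots at 0 h, 40 of the 84 were called higher in the elongation than in the meristematic zone, where 17.8% of all probe sets were, and 3 were called lower, where 23% were. Their median zone difference was 0.65. The 84 were chosen by a rise on elongation zone arrays, which a probe set dim on all of these arrays could hardly show. Of the 84, 6 had a mean signal under 50 over the 8 late arrays. The background includes dim probe sets, so the excess may be partly built in, and a comparison matched for signal was not made. Of the 18 that fell, 5 were called higher and 7 lower in the elongation zone at 0 h. On an axis on which the 0 h controls of the meristematic zone sit at 0 and those of the elongation zone at 1, the H2O2 arrays averaged 1.21 ± 0.0519 (SD, n = 4) and the control arrays of the same times 1.14 ± 0.0474 (SD, n = 4). The exact permutation test within times, 2-sided over 36 arrangements, gave p = 0.167. With this position as a covariate, an alternative chosen after the values were seen, 77 probe sets were called, 65 of them among the 102. Of the 47 named genes 27 kept their call, among them BGLU28 at 3.38, GSTU25 at 1.62 and AT2G41810 at -1.40, and 20 lost it, among them UGT73B4 (adjusted p = 0.0974), UGT73B5 (0.116), AT3G26470 (0.0977), AT1G60730 (0.0538) and AT5G07870 (0.111).

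Markers of dividing cells gave lower sums on H2O2 at both times, without overlap within a time. The summed signal of the 4 measured of 8 listed meristem markers lay between 133 and 187 on H2O2 and between 178 and 238 on control medium, with BBM never above 3.41. An exact permutation test gave p = 0.0556, no lower p being possible with 36 arrangements, and 0.499 after adjustment over the 9 measures tested this way. None of 18 cell cycle and replication genes was called. A negative value was found in 16 and a positive one in 2, where 9835 of all 22746 probe sets were positive. Of the 18, 4 lay below both control arrays at both times (5.55% of all probe sets did). The median was -0.22 against -0.03 over all probe sets. AUR3, a mitotic kinase, had the lowest value, -0.47 ± 0.14 (adjusted p = 0.196). The summed elongation zone markers lay between 8239 and 11058 on H2O2 and between 7666 and 9217 on control medium (exact permutation p = 0.111). The part of these shifts in the called genes was not tested beyond the covariate above.

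The other lists held no called gene. They included heat shock proteins and chaperones (11 genes, median -0.10), auxin response and transport (16, median -0.05), the cytochrome P450 family (23, median 0.13), calcium signalling (16, median -0.05), flavonoid genes (5, median -0.15), stress transcription factors (5, median 0.11) and mitochondrial stress genes (3, median 0.30). Among the brightest were the P450 CYP71B6 at 0.13 ± 0.10, the auxin-conjugating enzyme GH3.17 at 0.11 ± 0.20, the calmodulin-like CML42 at 0.23 ± 0.18 and the chaperone cofactor Hop2 at 0.02 ± 0.16. PYK10, the abundant beta-glucosidase of ER bodies, measured between 10532 and 12723 on control medium and between 9050 and 11622 on H2O2, a value of -0.16 ± 0.13. A further 10 lists with 1 to 4 measured genes, among them pectin-modifying enzymes, efflux carriers, root hair genes and hormone responses, held no call either. Apart from the peroxidases the lists were matched by symbol and miss members known by a locus alone, such as AT2G43890, AT5G62340 and AT3G21690, so they do not cover these groups. Aquaporins, extensins, endodermal and suberin genes and NADPH oxidases had no measured member with a name and were not analysed here.

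**Figure D4:**
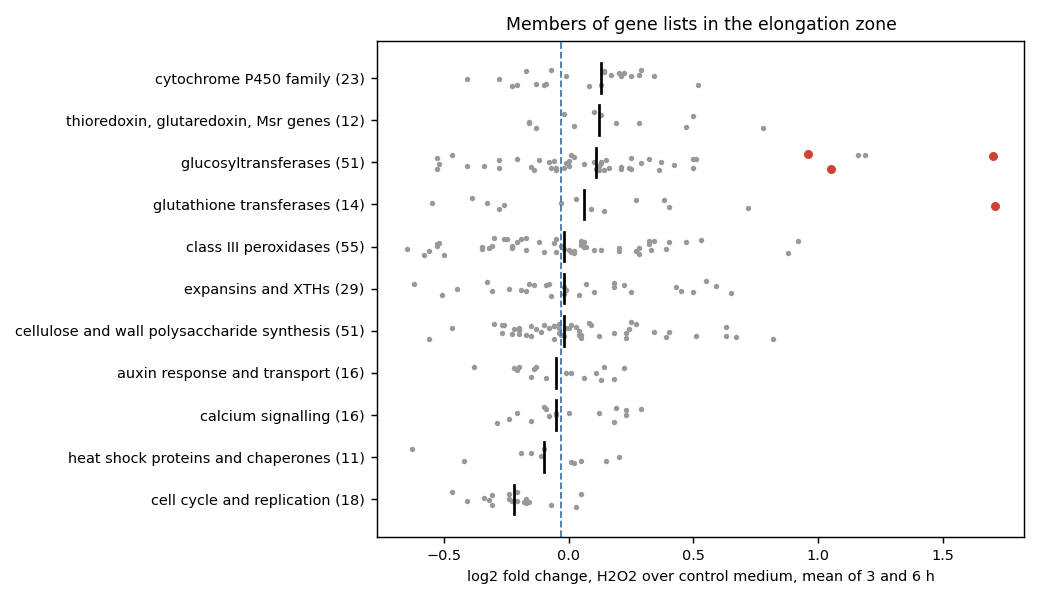
Late log2 fold changes, H2O2 over control medium, of the members of the 11 lists with at least 10 measured genes (1 dot per gene, number of genes in brackets); red dots are called genes, black bars the median of a list and the dashed line the median of all probe sets at -0.03. The 4 red dots belong to the glucosyltransferases and glutathione transferases.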

How the data were processed

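Biotin-labelled cRNA of 28 hand-cut root zone samples was read on ATH1 arrays. The authors deposited 1 linear intensity for each probe set of an array. MAS5 and GCRMA appear in the submitters' processing notes, and which of them made the values is not given in the sources used here. Detection calls were not used. Arrays were grouped by their labels. From the deposited intensities log2(signal + 16) was taken and 1 mean per group was fitted over 28 arrays and 14 groups in limma 3.58.1 (R 4.3.3; lmFit, eBayes with an intensity trend; 14 residual and 5.6 prior degrees of freedom). Contrasts were 2-sided and adjusted by Benjamini-Hochberg over 22746 probe sets, after 64 control probe sets of 22810 were left out. Calls were made at an adjusted p under 0.05. Single values over the 8 arrays were compared by an exact permutation test within times. The number of arrays limits the precision, and the spread behind each p-value is that between 2 biological replicates in a group.

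Probe sets were named where the platform annotation gave 1 gene (13513; several genes, 503), through gene IDs in a RefSeq gene table of TAIR10.1, which matched 13436. The remaining 9310 tested probe sets were counted without names. The brightest probe set stood for a gene. By rule, up to 15 called genes per direction of the late contrast without overlap at 3 and 6 h were named, up to 5 per direction for each time and each difference, and called or the brightest 2 members of gene lists. Further genes were named with their values in view. The arrays, lists and tests were chosen with earlier results of these data known. The peroxidase list was matched by locus after the values had been opened. Gene roles are background knowledge. Scripts were tested on simulated arrays. Alternatives were other pseudocounts (1 and 64), quantile normalization, arrays shifted to 1 median, a minimum mean signal of 50, no trend, a replicate block, fewer arrays and each array left out in turn.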

Additional observations from a re-analysis of the deposited data

Results flagged for a closer look

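A difference between groups under the same contrast passed its own test for 2 probe sets. The late H2O2 effect of AT5G53320 was 1.32 higher in the elongation than in the meristematic zone (limma adjusted p = 0.00935), and 2.62 higher than its 1 h effect in the elongation zone (adjusted p = 3.79e-06). Its highest signal on the 8 late elongation zone arrays was 54.5, and on control medium at 1 h it lay between 22.9 and 30.6.

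A probe set without a named gene had a late effect 1.03 below its 1 h effect, a difference of -1.03 (adjusted p = 0.01). It measured between 581 and 635 on H2O2 and between 388 and 435 on control medium at 1 h, an effect of 0.55 (adjusted p = 0.162), and fell late with a value of -0.49 (adjusted p = 0.00803), from 376 and 330 to 238 and 258 at 3 h and from 357 and 358 to 260 and 240 at 6 h.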

How the results depend on the processing

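The 102 late calls of the elongation zone became 208 with the replicate block, 41 with the elongation zone arrays alone, 21 with the arrays compared alone and 48 with time and medium as additive terms on these 8 arrays, an alternative added after the values were seen. Leaving out 1 array gave 38 to 99. With pseudocounts of 1 and 64, quantile normalization, a common median, the minimum signal, no trend and the position covariate the count was between 77 and 150. The 31 calls at 3 h became 67 with the replicate block, 0 with the elongation zone arrays alone and 0 with the arrays compared alone, and 1 to 17 with 1 array left out. The 13 at 6 h became 37 at a pseudocount of 64, 54 with the replicate block, 0 and 0 with fewer arrays, and 2 to 18 with 1 array left out. In the elongation zone alone fewer arrays enter the spread. The replicate block moved no other count by more than 1.5 times. The 208 late calls with the replicate block included all 102 of the main fit. The deviations of same-numbered arrays in the 4 late groups correlated with r from -0.02 to 0.20. Nothing in the labels says that the numbers pair the arrays, and the main fit did not pair them. Whether same-numbered arrays shared a batch was not tested. The change from 3 to 6 h gave 2 calls at a pseudocount of 1 and 0 with 1 array left out. The zone difference gave 0 at a pseudocount of 1, 4 at 64, 0 at the minimum signal of 50, which AT5G53320 does not reach, 0 with the arrays compared alone and 0 to 2 with 1 array left out. The late minus 1 h difference gave 4 at a pseudocount of 1 and 4 at 64, 1 at the minimum signal, 1 in the elongation zone alone, 0 with the arrays compared alone, 5 without the 1 h control arrays numbered 1 of both zones, and 1 to 78 with 1 array left out. Where no value above names it, the cause was not tested. Of the 84 probe sets called higher, 61 at 3 h and 65 at 6 h had the lower control signal in the array numbered 1 (72.6% and 77.4%, against 49.9% and 46.3% of all probe sets). On H2O2 the array numbered 1 was the lower one in 43 at 3 h and 64 at 6 h (51.2% and 76.2%, against 56.6% and 53%). Dim signals, 27.2% to 31.1% of each array under 16, limit the folds of genes such as AT2G41380, whose value lay between 1.04 and 3.36.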

Other observations

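AT5G62340 is an invertase and pectin methylesterase inhibitor family gene. Its control signals in the elongation zone were higher at 6 h, 1718 and 2210, than at 3 h, 1426 and 1128. At 0 h they lay between 4299 and 5003 and at 1 h between 3098 and 3752, above both later times. These differences with time were not tested. The sum of trichoblast markers, EXPA7 and EXPA18 being the 2 measured of 6 listed, lay between 68.6 and 149 on H2O2 and between 110 and 152 on control medium (exact permutation p = 0.333). The log2 ratio of 3-prime to 5-prime GAPDH control signals was 0.0154 ± 0.144 (SD, n = 4) on H2O2 and 0.0557 ± 0.0639 (SD, n = 4) on control medium (exact permutation p = 0.667).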
